A study of Mus musculus with 17 samples.

Results

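Voltage-gated sodium channels open within a fraction of a millisecond of depolarisation and carry the rising phase of the action potential. Each channel is a large pore-forming alpha subunit, made by 1 gene, to which smaller beta subunits attach that set gating and surface level and act as adhesion molecules. In the adult hippocampus the alpha subunits Nav1.1 (Scn1a, prominent in fast-spiking interneurons), Nav1.2 (Scn2a1, prominent in excitatory axons and their initial segments) and Nav1.6 (Scn8a, concentrated at initial segments and nodes) dominate, while Nav1.3 (Scn3a) is best known from the developing brain. Variants of several of these genes cause epilepsy in people, and many antiseizure drugs block the channels.

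The 7 genes described here are these 4 alpha subunit genes (Scn1a, Scn2a1, Scn3a, Scn8a) and 3 beta subunit genes (Scn2b, Scn3b, Scn4b), chosen by gene symbol. The choice was made with earlier results of these data known, so their counts, set beside shares of all genes, do not test the list. They were 7 of the 55450 genes in the count files, and all 7 were among the 17615 genes that passed the filter on low counts in the 17 libraries. Scn2a1 is the older symbol of Scn2a and is used here as the name table gives it.

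Bulk polyA RNA from adult mouse hippocampus was sequenced in 3 groups. The control sgLacZ group (n = 5) was sham control animals, the epileptic sgLacZ group (n = 6) was made epileptic by kainic acid injected into the amygdala, and the epileptic sgKcna1 group (n = 6) was made epileptic in the same way. All groups, controls included, received a pair of AAV9 vectors, with dCas9-VP64 (a DNA-binding protein without nuclease activity fused to a transcriptional activator) under a doxycycline-responsive promoter and the doxycycline-sensing transactivator under the Camk2a promoter, which is active mainly in excitatory neurons, and all were fed doxycycline. The guide RNA addressed LacZ, a bacterial gene absent from mice, or the promoter of Kcna1, the gene of the potassium channel Kv1.1. Per the study's methods the animals were C57BL/6J mice of either sex, 2 to 3 months old at surgery. The methods place the vector injections in the right ventral hippocampus, and the sample titles name hippocampus without a side or part. Since bulk tissue was taken while the vector acts in part of its cells, the counts average transduced and other cells, and fewer cells of a type cannot be told apart from less RNA per cell.

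Libraries held about 11839200 to 28311300 reads in genes. The targeted gene did not check the labels: Kcna1 was at 37.6, 44.0, 25.5, 33.7 and 34.6 CPM (read counts scaled to a common library total) in the control libraries, ranged from 16.9 to 56.7 with a median of 27.6 in the libraries labelled epileptic sgLacZ, and ranged from 13.9 to 133 with a median of 19.1 in those labelled epileptic sgKcna1, where 5 of the 6 lay at or below 29.5. The difference between the epileptic groups was 0.32 ± 0.47 on the log2 scale (edgeR quasi-likelihood test, adjusted p = 0.706), and turned to -0.65 without replicate 12. That library, epileptic sgKcna1 replicate 12, had 41.5% of its reads unmapped, the most of all, and the fewest reads, and stood farthest from its group, and epileptic sgLacZ replicate 4 had 11% unmapped, the fewest. Among the other 15 libraries unmapped reads made up 15.8% to 27.7%. These measures also moved with the groups: unmapped reads were 19.5% to 27.7% in controls and 11% to 24.1% in the epileptic sgLacZ group. The median of genes with GC-poor transcripts minus that of genes with GC-rich ones (lowest and highest quartile by GC content) was -0.0034 to 0.17 log2 units in controls, -0.25 to -0.03 in the epileptic sgLacZ group and -0.09 to 0.28 in the epileptic sgKcna1 group. No other labelled batch was given. By Xist and Y-linked transcripts 2 of 5 control, 4 of 6 epileptic sgLacZ and 2 of 6 epileptic sgKcna1 libraries were female.

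Scn1a, Scn2a1 and Scn3a lie within 1 cluster on mouse chromosome 2 (GRCm38.p6 positions 66270781 to 66440837, 65620764 to 65767447 and 65457118 to 65567591), Scn2b, Scn3b and Scn4b lie on chromosome 9 (45117876 to 45130070, 40269216 to 40291618 and 45138624 to 45154155) and Scn8a lies on chromosome 15 (100869863 to 101045938). The stretches before the first annotated start of Scn2a and that of Scn1a, from RefSeq (GRCm38.p6), are shown because these cluster neighbours were the alpha subunit genes whose fitted differences were farthest apart. They are 245 and 250 bases long, chr2:65620519-65620763 on the plus strand and chr2:66440838-66441087 on the minus strand, with CG dinucleotides in capitals.
Scn2a: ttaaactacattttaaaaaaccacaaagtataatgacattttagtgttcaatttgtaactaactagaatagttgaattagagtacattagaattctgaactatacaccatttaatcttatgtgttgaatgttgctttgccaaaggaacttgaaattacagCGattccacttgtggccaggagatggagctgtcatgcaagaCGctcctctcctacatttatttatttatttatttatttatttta
Scn1a: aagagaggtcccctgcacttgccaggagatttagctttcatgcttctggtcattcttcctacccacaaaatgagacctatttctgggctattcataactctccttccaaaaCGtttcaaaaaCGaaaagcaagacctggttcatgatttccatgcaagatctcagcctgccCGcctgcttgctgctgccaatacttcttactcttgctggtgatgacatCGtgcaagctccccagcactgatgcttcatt
The Scn2a stretch was 30.2% G and C with 2 CG dinucleotides, and the Scn1a stretch 46.8% with 4, while the median over 32851 stretches of 250 bases before annotated starts was 52.4% with 6. Neither held the GC box GGGCGG (in 32.7% of all stretches), the cyclic AMP response element TGACGTCA (1.55%), the EGR1 motif GCGGGGGCG (2.57%), the E box CACGTG (6.02%) or the TATA box TATAAA (12.4%) on either strand, which says only that these letters are not in these windows. A second annotated start of Scn2a lies within the gene, and the 250 bases before it (chr2:65668436-65668685, plus strand) were 53.2% G and C with 9 CG dinucleotides and held TATAAA 84 bases before the start. Promoter entries for 5 of the 7 genes were found in the table.

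The first comparison asked how the transcripts differed between epileptic and control hippocampus, both with sgLacZ. Scn2a1, the Nav1.2 gene, fell by 0.55 on the log2 scale, to 0.683 of its control level, and was the only one of the 7 genes past the threshold (adjusted p under 0.05). All 6 epileptic sgLacZ libraries lay below all 5 controls. The other 6 genes did not pass, and their fitted differences ran from -0.28 for Scn3a to 0.37 for Scn4b. Among all genes tested 11% were called in this comparison, 3.76% called lower, and 4.39% had groups that did not overlap. Beside these shares stood 1 of 7 called, 1 of 7 lower and 1 of 7 without overlap, each time Scn2a1. Counts of 1 gene are too small to be set apart from the shares. At an unadjusted p under 0.05 there were 3 of the 7 (Scn2a1, Scn3a, Scn2b), where 34.7% of all genes reached that level. The median log2 fold change was 0.21 over the 7 genes and 0.02 over all genes tested.

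**Figure D1:**
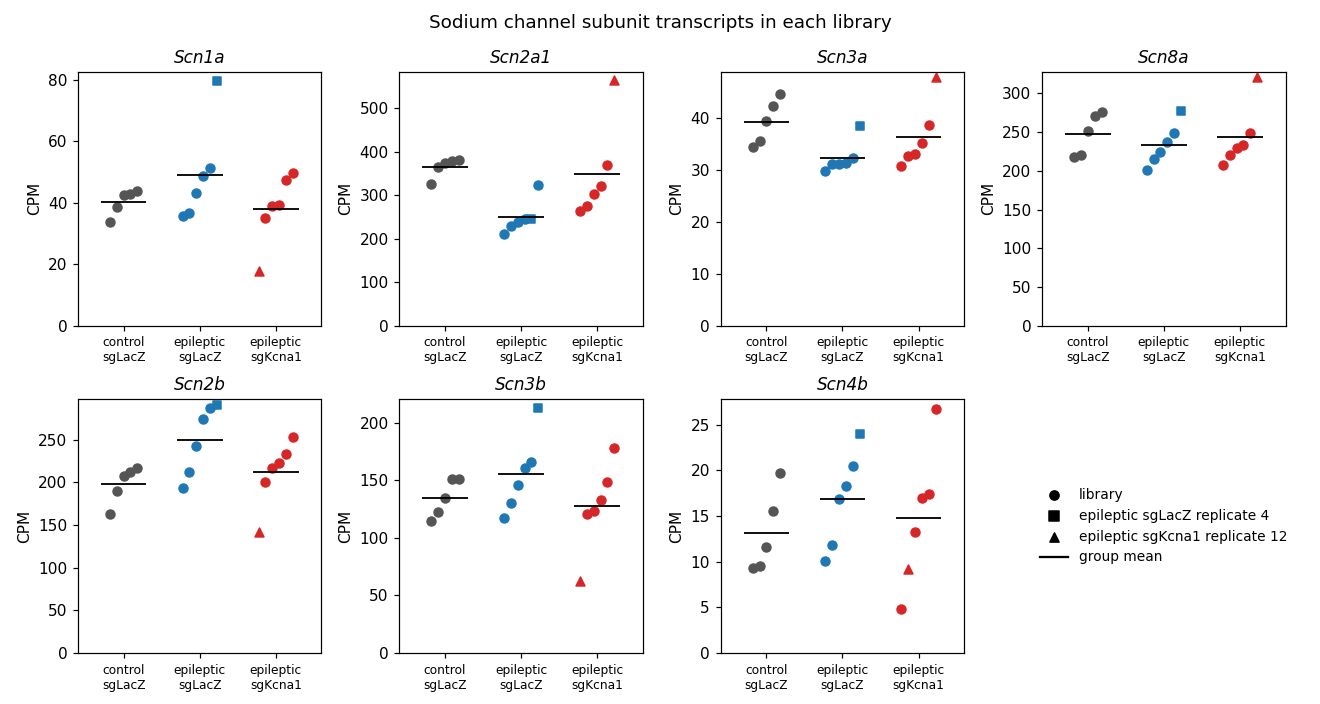
CPM (y axis, from 0) of the 7 genes in each of the 17 libraries by group, with horizontal lines for group means. Scn2a1 in epileptic sgLacZ libraries lay below every control library, and epileptic sgKcna1 replicate 12 (triangle) and epileptic sgLacZ replicate 4 (square) were often the extreme points of their groups.

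Scn2a1 was at 379, 374, 326, 380 and 364 CPM in control libraries 13, 14, 15, 16 and 23. In the epileptic sgLacZ libraries it ranged from 211 to 325 with a median of 241. Group means were 365 ± 22.4 (SD, n = 5) and 249 ± 39.2 (n = 6). The groups came close to touching, since the highest epileptic sgLacZ library (replicate 5, 324.7) lay just below the lowest control (replicate 15, 326.2), and the next highest epileptic library was at 246. The fitted difference was -0.55 ± 0.16 (SE), with a 95% interval from -0.87 to -0.23 and an adjusted p of 0.0423 (edgeR quasi-likelihood test, Benjamini-Hochberg over 17615 genes). The call stood close to the threshold. With 1 library left out it was kept only without epileptic sgLacZ replicate 5 (adjusted p = 0.00787) or epileptic sgKcna1 replicates 2 (0.0464), 11 (0.0448) or 12 (0.00605), and without any 1 of the other 13 the adjusted p lay between 0.05001 and 0.103, while the difference stayed between -0.64 and -0.51 in all 17 fits. In 7 of those 13 fits 0 of all genes tested passed the threshold, so the loss there was not particular to Scn2a1. The transcript of Scn2a1 is GC-poor (43.3% G and C, the 14.1th percentile of tested genes), and the GC measure and the unmapped share both differed between these groups. With a GC offset for each library the difference was -0.47 (adjusted p = 0.0668) and with unmapped reads as a covariate -0.34 (0.0762). In the other 7 of the 9 settings that did not leave out a single library the call was kept. Those 7 were DESeq2, another scaling, no low-count filter, added strands, limma voom, sex as a covariate and both outlying libraries left out.

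**Figure D2:**
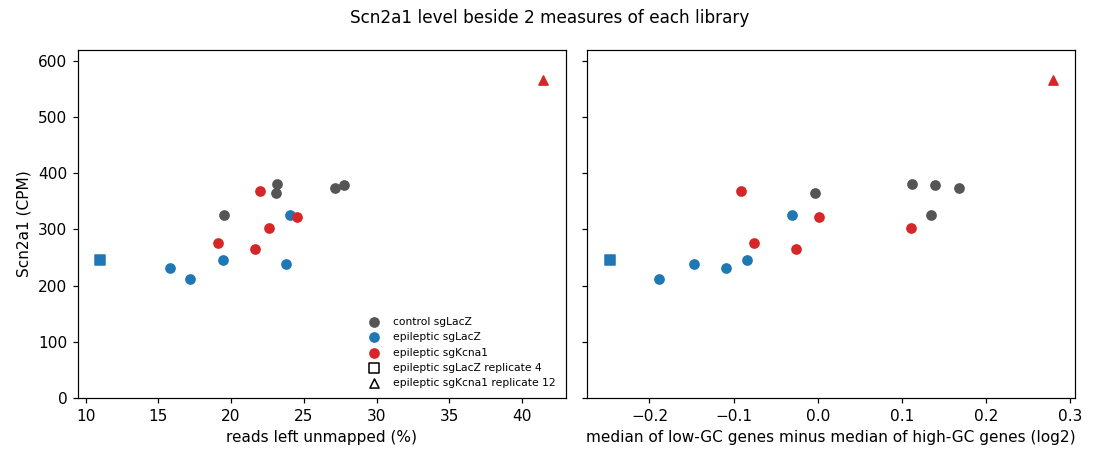
Scn2a1 in CPM (y axis) against the percent of reads left unmapped (left) and against the median of GC-poor genes minus the median of GC-rich genes in log2 units (right), 1 point per library. The lowest libraries on both x axes were epileptic sgLacZ libraries, and epileptic sgKcna1 replicate 12 lay highest on both, with 566 CPM of Scn2a1.

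**Figure D3:**
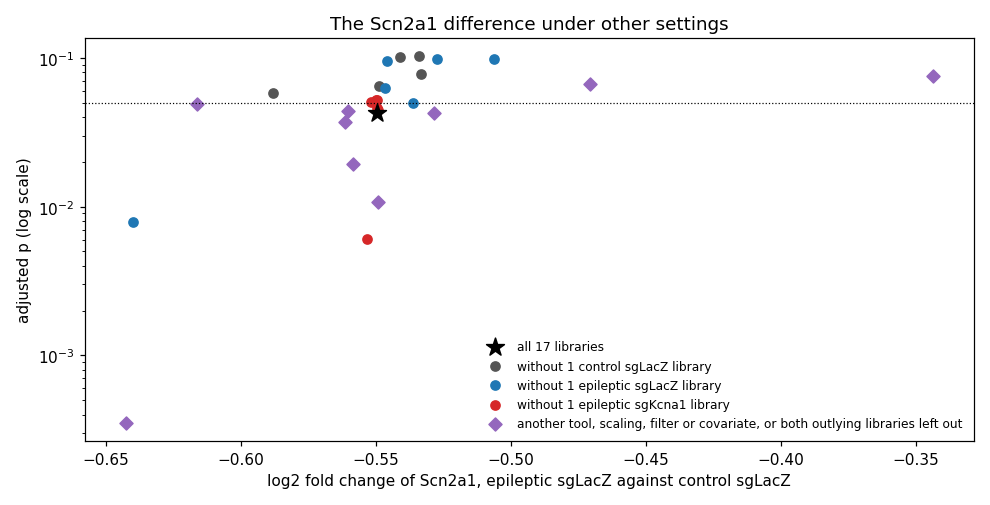
Log2 fold change of Scn2a1 between epileptic sgLacZ and control sgLacZ (x axis) and its adjusted p (y axis, log scale) in the fit of all 17 libraries, in the 17 fits that left out 1 library and in 9 other settings. The dotted line marks 0.05, and all points lie at negative fold changes between -0.64 and -0.34.

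Scn1a, the Nav1.1 gene, was at 33.8, 38.6, 44.0, 42.4 and 42.8 CPM in controls and ranged from 35.7 to 79.6 with a median of 46.1 in the epileptic sgLacZ group. The groups overlapped, and the top value belonged to replicate 4. The difference was 0.29 ± 0.22 with a 95% interval from -0.14 to 0.72 (edgeR, adjusted p = 0.357), and 0.10 (adjusted p = 0.600) when both outlying libraries were left out. With unmapped reads as a covariate it was -0.11. The transcript of Scn1a was 43.3% G and C, as was that of Scn2a1. The ratio of Scn2a1 to Scn1a CPM in a library, which no scaling of the library can change, was 11.2, 9.69, 7.42, 8.95 and 8.50 in controls, and ranged from 3.09 to 9.10 with a median of 5.08 in the epileptic sgLacZ group. In 5 of the 6 epileptic sgLacZ libraries it lay below all controls, the exception being replicate 5, and this was not tested. In the epileptic sgKcna1 group the ratio ranged from 5.56 to 31.7 with a median of 7.40. It was lowest in epileptic sgLacZ replicate 4, with 11% of reads unmapped, and highest in epileptic sgKcna1 replicate 12, with 41.5%. The part of such library differences in the ratio was not tested.

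Scn3a, the Nav1.3 gene, was at 35.6, 39.6, 44.7, 42.4 and 34.5 CPM in controls and ranged from 29.9 to 38.4 with a median of 31.3 in the epileptic sgLacZ group. Of the 6 epileptic libraries 5 lay below all controls, and replicate 4 overlapped with them. The difference was -0.28 ± 0.12 (edgeR, adjusted p = 0.0969), and it passed the threshold when both outlying libraries were left out (-0.34, adjusted p = 0.0193) without epileptic sgKcna1 replicate 12 alone (-0.28, adjusted p = 0.0328) or with limma voom (-0.32, adjusted p = 0.00471), while with GC offsets it was -0.18 (adjusted p = 0.275). Scn8a, the Nav1.6 gene, was at 221, 251, 217, 276 and 270 CPM in controls and ranged from 201 to 278 with a median of 231 in the epileptic sgLacZ group. These groups overlapped over nearly their whole range, and the difference of -0.08 ± 0.12 had a 95% interval from -0.31 to 0.15 (edgeR, adjusted p = 0.657).

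The beta subunits did not pass the edgeR test. Scn2b, whose product binds alpha subunits through a disulphide bond, was at 163, 191, 217, 208 and 212 CPM in controls and ranged from 193 to 290 with a median of 259 in the epileptic sgLacZ group. Of the 6 epileptic libraries 4 lay above all controls. The difference was 0.34 ± 0.14 (edgeR, adjusted p = 0.0986), and passed without epileptic sgLacZ replicate 5 (0.40, adjusted p = 0.0323) or epileptic sgKcna1 replicate 12 (0.33, adjusted p = 0.0344) and with limma voom (0.35, adjusted p = 0.00624), while with unmapped reads as a covariate it was 0.12 (adjusted p = 0.359). Scn3b, whose product attaches to the alpha subunit without such a bond, was at 115, 122, 135, 151 and 151 CPM in controls and ranged from 117 to 213 with a median of 153 in the epileptic sgLacZ group, with overlap and a difference of 0.21 ± 0.19 (edgeR, adjusted p = 0.464). Scn4b, best known from fast-firing neurons with resurgent sodium current, was at 9.52, 11.6, 15.6, 9.33 and 19.7 CPM in controls. It ranged from 10.1 to 24.0 with a median of 17.6 in the epileptic sgLacZ group. Its libraries varied most of the 7 genes in controls (coefficient of variation 33.7%), and the difference of 0.37 ± 0.33 had a 95% interval from -0.28 to 1.01 (edgeR, adjusted p = 0.443).

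**Figure D4:**
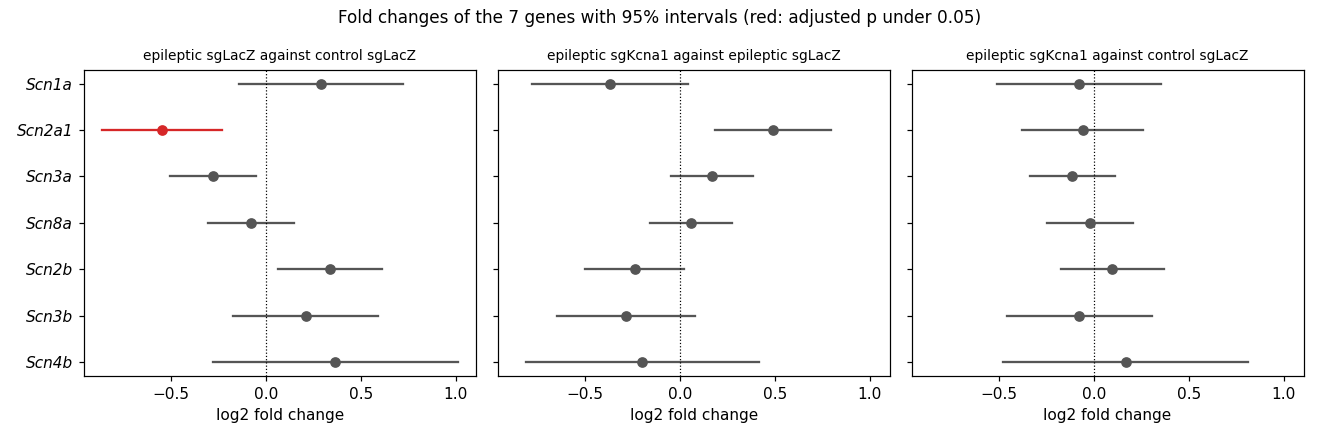
Log2 fold changes (x axis) of the 7 genes in the 3 comparisons, with 95% intervals as bars. Only Scn2a1 in the first comparison, at -0.55, had an adjusted p under 0.05, and the largest difference of the second comparison was again Scn2a1, at 0.49.

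The second comparison asked how the libraries labelled epileptic sgKcna1 differed from those labelled epileptic sgLacZ, which are the same epileptic sgLacZ libraries as in the first. None of the 7 genes passed (edgeR, 0 of 7, as by DESeq2 and by limma voom with quality weights), and 1 of 7, Scn2a1, reached an unadjusted p under 0.05, where 19.2% of all genes did. Over all genes edgeR called 0% at the adjusted threshold, DESeq2 called 115 genes and voom 12. The share of all genes with groups that did not overlap was 0.483%, and 0 of the 7 were among them. Scn2a1 ranged from 264 to 566 CPM with a median of 312 in the epileptic sgKcna1 group. Its difference was 0.49 ± 0.16 with a 95% interval from 0.19 to 0.79 (edgeR, adjusted p = 0.213). The top value was replicate 12, the next 369, and without that library the difference was 0.30 (adjusted p = 0.264), while without epileptic sgLacZ replicate 5 it was 0.58 (adjusted p = 0.0421).

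The other 6 genes ran from -0.37 ± 0.21 for Scn1a to 0.17 ± 0.11 for Scn3a in this comparison. Scn1a ranged from 17.8 to 49.8 CPM with a median of 39.1 in the epileptic sgKcna1 group, and Scn2b from 142 to 253 with a median of 220. Scn3b ranged from 62.4 to 178 with a median of 128. In each of these 3 genes the lowest library of the group was replicate 12. Scn3a ranged from 30.7 to 48.1 CPM with a median of 34.2, and Scn8a from 207 to 322 with a median of 231, both highest in replicate 12. Scn4b ranged from 4.88 to 26.7 with a median of 15.1, and its widest library-to-library spread was in this group (coefficient of variation 51.2%). The 95% intervals were -0.78 to 0.04 for Scn1a, -0.50 to 0.02 for Scn2b, -0.65 to 0.08 for Scn3b, -0.05 to 0.38 for Scn3a, -0.16 to 0.27 for Scn8a and -0.81 to 0.41 for Scn4b.

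The third comparison set the libraries labelled epileptic sgKcna1 against control sgLacZ, and shares a group with each of the others. None of the 7 genes passed (edgeR 0 of 7, DESeq2 0 and voom 0), 0 of 7 reached an unadjusted p under 0.05 where 6.77% of all genes did, and 0 of 7 had groups that did not overlap where 1.14% of all genes did. Over all genes edgeR called 0% at the adjusted threshold, DESeq2 36 genes and voom 71. Differences lay between -0.11 ± 0.12 for Scn3a and 0.17 ± 0.33 for Scn4b. For Scn2a1 the difference was -0.06 ± 0.16 with a 95% interval from -0.38 to 0.26 (edgeR, adjusted p = 0.944), and 4 of the 6 epileptic sgKcna1 libraries lay below all controls while replicate 12 lay above them. Without that library the difference was -0.26 (adjusted p = 0.244).

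Levels of different genes were compared per kilobase of the longest annotated transcript, in control libraries and as a description. Scn2b (43.4 ± 4.82 CPM per kilobase, SD, n = 5) and Scn2a1 (41.2 ± 2.53) were highest and their ranges overlapped. Scn3b (29.9 ± 3.65) and Scn8a (22.6 ± 2.49) followed, each apart from its neighbours in that order. Scn1a (4.81 ± 0.50), Scn3a (4.12 ± 0.45) and Scn4b (2.66 ± 0.90) were lowest, with overlapping ranges between neighbours. The beta subunit messages hold a short coding part in a long transcript (648 of 4562 bases for Scn2b), so per kilobase of coding sequence Scn2b and Scn3b stood above every alpha subunit. By that measure Scn4b (13.6 to 28.7) was not lowest and lay above Scn1a (5.60 to 7.29) and Scn3a (5.90 to 7.65).

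**Figure D5:**
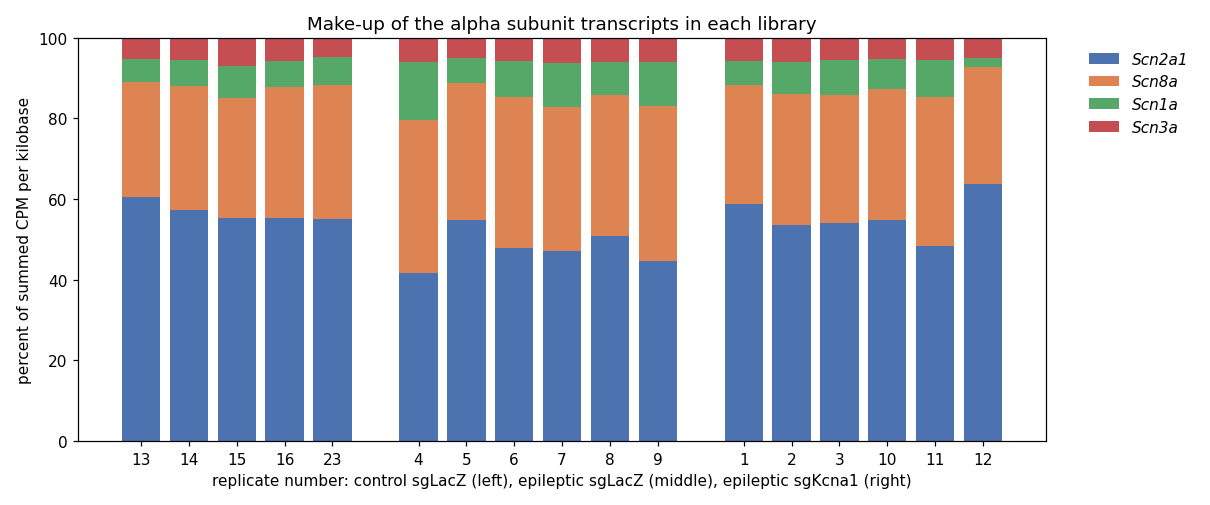
Percent of the summed CPM per kilobase of the 4 alpha subunit genes (y axis) taken by each, 1 bar per library, grouped as control sgLacZ, epileptic sgLacZ and epileptic sgKcna1 from left to right. Scn2a1 took 55.2% to 60.5% in controls and 41.7% to 54.8% in the epileptic sgLacZ group.

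Among the 4 alpha subunits Scn2a1 took 56.7% ± 2.30 (SD, n = 5) of the summed level per kilobase in controls, 47.9% ± 4.63 (n = 6) in the epileptic sgLacZ group and 55.6% ± 5.16 (n = 6) in the epileptic sgKcna1 group. The shares of the first pair did not overlap, with 54.8% the highest epileptic sgLacZ value and 55.2% the lowest control. Scn8a took 31.0% ± 1.90, 36.4% ± 1.84 and 32.0% ± 2.72, and here too the epileptic sgLacZ libraries (from 33.9%) lay above the controls (up to 33.2%). Scn1a took 6.63% ± 0.81, 9.97% ± 2.74 and 6.92% ± 2.63, and Scn3a 5.69% ± 0.82, 5.79% ± 0.48 and 5.48% ± 0.35. A share of 1 gene falls when another rises, so these are not separate results from the levels, and none was tested.

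Of 5 further sodium channel genes 2 passed the filter, Scn9a and Scn7a, and 0 were called by edgeR in any comparison, with 0, 1 and 0 at an unadjusted p under 0.05, in the order of the comparisons above. Scn9a, the Nav1.7 gene of peripheral neurons, had the smaller p in the first comparison, with 3.56 ± 0.77 CPM in controls (SD, n = 5), 2.52 ± 0.70 in the epileptic sgLacZ group (n = 6) and a difference of -0.50 ± 0.27 (edgeR, adjusted p = 0.202). With limma voom that difference was -0.77 (adjusted p = 0.0150), and with both strand counts added -0.25 (adjusted p = 0.483). It also had the smaller p in the second (0.63 ± 0.26, adjusted p = 0.228), and Scn7a, a sodium-sensing relative, in the third (-0.50 ± 0.29, adjusted p = 0.766). Counts of Scn9a were 1.12 times higher when both strands were counted apart and added, so reads shared with an overlapping gene make its value uncertain. For the 7 genes described here that ratio was 1.00.

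Partners of the channels were grouped by role, and 7 of 29 were called between epileptic sgLacZ and control sgLacZ, 4 higher and 3 lower, beside the 11% over all genes. The partner lists were chosen with earlier results of these data known. So this count and the later partner counts, set beside shares of all genes, do not test the lists. Of the genes that cluster channels at the axon initial segment 3 of 7 rose: Sptbn4, the beta-IV spectrin of initial segments (0.75 ± 0.20, adjusted p = 0.0355), Nfasc, the adhesion protein neurofascin (0.70 ± 0.19, 0.0391), and Sptan1, alpha-II spectrin (0.63 ± 0.19, 0.0429). All were edgeR tests on the log2 scale. Ank3, the ankyrin-G that ties channels to that spectrin, had a difference of -0.43 ± 0.27 (adjusted p = 0.271) and was named after its value was seen. Of 13 kinase, calmodulin, ubiquitin ligase and trafficking genes Nedd4, a ubiquitin ligase, rose (0.52 ± 0.14, 0.0391), and 2 fell, Kif5b, a kinesin heavy chain (-0.57 ± 0.17, 0.0417), and Calm2, a calmodulin gene (-0.53 ± 0.15, 0.0399). Kif5b fell from 454 ± 13.4 CPM (SD, n = 5) to 305 ± 55.1 (n = 6). Of 5 RNA-binding and transcriptional regulators Celf4, an RNA-binding protein of neurons, fell (-0.78 ± 0.24, 0.0483), from 1698 ± 132 to 991 ± 325 CPM. None of the 4 FGF homologous factors, which bind the tail of the alpha subunits, was called (0 of 4 by edgeR, 3 of 4 at an unadjusted p under 0.05 beside 34.7% of all genes, Fgf11 with 0.41 ± 0.18 and adjusted p = 0.120).

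These calls depended on the libraries and on the covariates. Without epileptic sgLacZ replicate 4, 7 or 9, or without any 1 of the 5 control libraries, 0 of 29 partners were called by edgeR (0 of all 17615 genes in 7 of these 8 fits, the exception being without control sgLacZ replicate 15), and without epileptic sgLacZ replicate 5 or epileptic sgKcna1 replicate 12 the counts were 13 and 12. With unmapped reads as a covariate 3 were called, with GC offsets 1 (Nedd4), and with sex as a covariate 0. No sign turned in any of these fits: over the 9 settings other than left-out single libraries the 4 higher genes stayed between 0.32 and 0.78 and the 3 lower between -0.86 and -0.34. In the second comparison 0 of 29 partners were called (edgeR, also 0 by DESeq2 and voom) and 13 of 29 reached an unadjusted p under 0.05, beside 19.2% of all genes. The smallest p in each list belonged to Fgf14 (0.22 ± 0.10, adjusted p = 0.238), Nfasc (-0.57 ± 0.18, 0.213), Kif5b (0.49 ± 0.16, 0.213) and Celf4 (0.76 ± 0.23, 0.213). In the third 0 of 29 were called by edgeR, DESeq2 and voom, with 2 at an unadjusted p under 0.05 beside 6.77% of all genes, and the smallest p belonged to Fgf12 (0.45 ± 0.17, adjusted p = 0.674), Sptan1 (0.22 ± 0.19, 0.815), Camk2d (0.93 ± 0.30, 0.644) and Rbfox2 (0.26 ± 0.14, 0.766).

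Cell type markers give the setting of the Scn2a1 difference, and their part in it was not tested. The counts below stand beside 11% of all genes called and 34.7% at an unadjusted p under 0.05. Of the hippocampal principal cell markers 6 of 6 passed the filter and summed to 450 to 736 CPM in a library. All other marker lists passed in full as well, so passing does not check the labelled tissue. The 6 striatum markers summed to 76.3 to 165 CPM and the 4 thalamus markers to 60.6 to 149 CPM. Between epileptic sgLacZ and control sgLacZ 2 of 11 general neuron markers fell (Nefl, Elavl4), and their summed level was 6317 to 7015 CPM against 6682 to 7178 in controls. Of 5 excitatory neuron markers 1 rose (Slc17a7), with sums of 3436 to 5266 against 3217 to 3770 CPM, and of 7 interneuron markers 0 were called by edgeR (3 at an unadjusted p under 0.05), with sums of 831 to 1390 against 1235 to 1544. Of 8 astrocyte markers 2 rose (Gfap, Aldh1l1), with sums of 3228 to 3955 against 3017 to 3397, of 9 microglia markers 1 (Csf1r), with sums of 357 to 739 against 485 to 544, and of the 6 hippocampal principal cell markers 1 (Wfs1). These marker genes are named after their values were seen. Fitted differences were positive for 3 of 11 general neuron, 3 of 5 excitatory neuron and 3 of 7 interneuron markers. They were positive for 7 of 8 astrocyte, 3 of 9 microglia and 5 of 6 hippocampal principal cell markers. The median over the microglia markers was -0.12, beside 0.02 over all genes tested. No marker of oligodendrocytes, their precursors, endothelium, choroid plexus, striatum or thalamus was called by edgeR, with 1, 1, 2, 0, 1 and 0 at an unadjusted p under 0.05. Oligodendrocyte markers summed to 5117 to 7495 against 6721 to 9698 CPM, and choroid plexus markers varied from 293 to 12568 over the 17 libraries.

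Genes whose pattern over the 17 libraries was most like that of a member were sought among 11685 genes with a mean of at least 5 CPM. The measure was the root mean square difference of centred log2 CPM. This is a description over libraries that differed in depth and in unmapped reads, and the part of these in the likeness was not tested. For Scn2a1 the likest genes were Smarca2 (0.086 log2 units) and Kif21a (0.091), against its own SD of 0.36. For Scn1a they were Dclk2 (0.13) and Vamp1 (0.14), for Scn3a Synj1 (0.11) and Fam63b (0.11), and for Scn8a Med1 (0.083) and Socs7 (0.084). Among beta subunits Scn2b was nearest to Bcl7a (0.060) and Lrp11 (0.073), Scn3b to Dclk2 (0.12) and Gne (0.12), and Scn4b to Cpne9 (0.29) and Galnt6 (0.30), the last pair the least close.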

How the data were processed

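Mouse hippocampi were profiled by polyA RNA-seq in 17 libraries. The authors aligned reads with STAR 2.7 to mm10, per the submitters' processing notes, which also name DESeq2, and deposited raw read counts per gene, unstranded and for each strand. The annotation release is not given in the sources used here. The labels name an unstranded kit and the methods a stranded one. Reverse to forward counts were 0.994 to 0.998, so the unstranded deposited counts were used. Within-group library pairs differed beyond sampling noise (40 pairs).

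Counts were scaled by TMM and tested with edgeR 4.0.16 (R 4.3.3) quasi-likelihood fits over all 3 groups, after filterByExpr, with Benjamini-Hochberg adjustment over 17615 genes and a threshold of 0.05. Intervals of fold changes are normal 95% intervals. Alternatives were DESeq2 1.42.0, limma 3.58.1 voom weights, other scaling, no filter, added strands, covariates, left-out libraries and, chosen after seeing the data, GC offsets and both outlying libraries left out. GC content (83.0% of tested genes) and lengths came from GENCODE M1, used for no coordinates. The labels name no litter or batch, and p-values measure the spread between these samples, which may be in part technical. The members and lists were chosen with earlier results of these data known. Named were the 7 genes and Kcna1, up to 4 called genes of largest change in each list and comparison, otherwise the gene of smallest p, and the 2 likest genes of each member. Some genes of the fixed lists are not reported here. The tests were also run on simulated counts, which held no trend with GC content or unmapped reads. That run therefore does not bear on such trends.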

Additional observations from a re-analysis of the deposited data

Results flagged for a closer look

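In 30 sets of values, each of 1 gene in 1 group, 6 values lay apart from the rest of their set by a Dixon test, where about 1 set in 20 would have such a value by chance. The sets reuse the same 17 libraries and so are not independent. Of the 6 values 3 were in epileptic sgKcna1 replicate 12 and 2 in epileptic sgLacZ replicate 4. In epileptic sgKcna1 replicate 12 Scn2a1 was at 566 CPM (next 369), Scn8a at 322 (next 248) and Kcna1 at 133 (next 29.5). In epileptic sgLacZ replicate 4 Scn1a was at 79.6 CPM (next 51.4) and Scn3a at 38.4 (next 32.3). Scn2a1 in epileptic sgLacZ replicate 5, at 325 CPM, lay above the other 5 (next 246).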

How the results depend on the processing

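No paired analysis was possible because the 3 groups share no replicate numbers. In the first comparison 1 of the 7 genes stayed called with DESeq2, other scaling, no filter, added strands or sex as a covariate. Between epileptic sgLacZ and control sgLacZ the called genes of the 7 numbered 3 with voom, 0 with unmapped reads as a covariate, 0 with GC offsets, 2 without both outlying libraries and 0 to 3 without 1 library, partners 19 (voom), 3 (unmapped), 0 (sex), 1 (GC) and 0 to 13, and all genes, 1940 in the report's fit, 3382 with DESeq2, 7301 (voom), 428 (unmapped), 516 (sex), 625 (GC), 3106 (both libraries out) and 0 to 5526. Between the epileptic groups they numbered 0 to 1 of the 7 and 0 to 6 partners without 1 library, and over all genes 115 (DESeq2), 1 (no filter), 12 (voom), 1 (GC) and 0 to 1508. Between epileptic sgKcna1 and control sgLacZ 1 partner was called with the unmapped covariate, and over all genes 36 (DESeq2), 71 (voom), 266 (unmapped), 88 (both libraries out) and 0 to 14. The highest counts without 1 library came without epileptic sgLacZ replicate 5, except that those of the 7 genes in the first comparison and of all genes in the third came without epileptic sgKcna1 replicate 12. The cause was not tested.

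Signs turned only for differences that did not pass. With the unmapped covariate Scn1a (-0.11), Scn3b (-0.13) and Kcna1 (0.44) turned in the first comparison, Scn1a (0.048), Scn8a (-0.043), Scn2b (0.0058), Scn3b (0.056), Scn4b (0.077) and Kcna1 (-0.85) in the second, and Kcna1 (-0.41) in the third. With voom Kcna1 (-0.31) turned in the second and Scn1a (0.026) and Kcna1 (-0.82) in the third, and with sex as a covariate Kcna1 (-0.13) in the third. Without both outlying libraries Scn4b (0.023) and Kcna1 (-0.37) turned in the second and Scn1a (0.057), Scn3b (0.056) and Kcna1 (-0.87) in the third. Without 1 library the range crossed 0 in the second for Scn8a (-0.042 to 0.12) and Kcna1 (-0.65 to 0.62), and in the third for Scn1a (-0.17 to 0.055), Scn2a1 (-0.26 to 0.00996), Scn3b (-0.20 to 0.053), Scn4b (-0.088 to 0.36), Scn8a (-0.12 to 0.022) and Kcna1 (-0.87 to 0.29). The libraries left out at these turns were epileptic sgKcna1 replicate 12 (Scn1a, Scn3b, Kcna1, and Scn8a in the second), replicates 2 and 11 (Scn2a1), 3 (Scn4b) and 2 and 10 (Scn8a in the third), and control sgLacZ replicates 16 and 23 (Scn8a in the third).

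Per kilobase of coding sequence control levels were 6.69 for Scn1a, 60.5 for Scn2a1, 6.73 for Scn3a, 43.3 for Scn8a, 306 for Scn2b, 208 for Scn3b and 19.1 for Scn4b, and alpha subunit shares 5.72% for Scn1a, 51.7% for Scn2a1 and 36.9% for Scn8a.

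Depth limited little for the 7 genes, whose lowest count was 99 reads (Scn4b).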

Other observations

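Of the 5 further sodium channel genes 3 were at or near 0 in these hippocampi. Scn4a, the skeletal muscle alpha subunit, had 0 to 6 reads in a library, and Scn10a and Scn11a, alpha subunits of sensory neurons, 0 to 7 and 0 to 10, where 3 reads correspond to 0.106 to 0.253 CPM across the libraries. Their highest levels were 0.277, 0.306 and 0.437 CPM.

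At least 50 reads of Xist and at least 50 reads of Y-linked genes were found together in 5 of the 17 libraries, 1 in the control sgLacZ group, 1 in the epileptic sgLacZ group and 3 in the epileptic sgKcna1 group, so the call of sex that the covariate used is uncertain for these.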
